A study of Mus musculus with 2 samples.

Results

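The keratin genes of the mouse fall into large families that are best known from epithelia, skin and hair. They were taken from GENCODE M21 (GRCm38) as every autosomal protein-coding gene whose symbol is Krt followed by a number, or starts with Krtap. This rule gave 110 of 20807 genes, of which 53 were keratins (Krt) and 57 were keratin-associated genes (Krtap). The measurement was CG methylation by whole genome bisulfite sequencing (WGBS) in primary osteoblasts, the bone-forming cells isolated from the calvarial bone of 3-day-old C57BL/6 mice and cultured for 3 days. One group was wild type (WT). The other was TCKO, in which Prx1-Cre deletes the floxed alleles of Tet1, Tet2 and Tet3 (Tet1fl/fl Tet2fl/fl Tet3fl/fl), the genes for the enzymes that oxidise 5-methylcytosine. Prx1-Cre is active in mesenchymal cells of the limb and skull, so cells in which it was never active would keep the Tet genes. Each genotype was represented by 1 library, and every test below compares these libraries and not the genotypes. Methylation at a gene says nothing of its RNA, which was not analysed here.

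Keratins are the intermediate filament proteins of epithelial cells. A type I (acidic) keratin pairs with a type II (basic) keratin, and the pairs build filaments that are anchored at desmosomes. Krt8, Krt18 and Krt19 are the classic keratins of simple, single-layered epithelia, Krt5 and Krt14 pair in the basal layer of the epidermis, Krt1 and Krt10 pair in the layers above it, and the hair keratins fill the hair shaft together with the keratin-associated proteins. In the mouse the type I genes lie in a row on chromosome 11, interrupted by a block of Krtap genes, and the type II genes lie on chromosome 15, with Krt18 as the type I gene beside Krt8. CpG-rich gene starts are commonly unmethylated in any cell type, whereas CpG-poor starts of tissue-restricted genes are often methylated in cells that do not use the gene.

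The starts of 3 genes show the range of sequences met in these families. They are the 250 bases before the RefSeq start on GRCm38.p6, in the direction of the gene, with every CG, the only context measured here, in capitals. Krt18 is shown as a CpG-rich start that was unmethylated in both libraries. Krt20 and Krtap1-5 are shown as CpG-poor starts with low methylation in WT and more in TCKO. They lie at chr15:102027966-102028215 on the plus strand, at chr11:99438154-99438403 on the minus strand and at chr11:99581017-99581266 on the minus strand.

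Krt18: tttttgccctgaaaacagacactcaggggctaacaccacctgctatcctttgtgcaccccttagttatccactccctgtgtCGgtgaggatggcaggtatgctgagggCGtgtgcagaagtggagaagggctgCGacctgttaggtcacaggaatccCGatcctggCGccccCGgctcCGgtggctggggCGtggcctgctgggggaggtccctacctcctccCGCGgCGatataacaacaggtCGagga
Krt20: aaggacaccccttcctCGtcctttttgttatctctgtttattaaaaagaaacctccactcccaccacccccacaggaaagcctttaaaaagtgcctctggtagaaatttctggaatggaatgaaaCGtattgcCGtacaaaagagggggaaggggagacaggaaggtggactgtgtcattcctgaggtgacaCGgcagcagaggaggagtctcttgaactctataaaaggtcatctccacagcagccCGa
Krtap1-5: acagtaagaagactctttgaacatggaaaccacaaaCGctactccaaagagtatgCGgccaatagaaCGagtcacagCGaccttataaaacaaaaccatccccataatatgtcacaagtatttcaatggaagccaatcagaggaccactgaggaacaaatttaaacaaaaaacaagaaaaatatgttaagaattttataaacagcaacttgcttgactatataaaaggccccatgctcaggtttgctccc

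The stretch of Krt18 holds 12 CpGs, that of Krt20 holds 5 and that of Krtap1-5 holds 4. Over these bases Krt18 had 0 methylated of 36 calls in WT and 0 of 24 in TCKO, which allows levels of up to 9.64% and 13.8% (upper bounds of the 95% Wilson intervals). Krt20 had 2 of 46 calls methylated in WT (4.35%) and 14 of 37 in TCKO (37.8%). Krtap1-5 had 12 of 81 calls methylated in WT (14.8%) and 50 of 70 in TCKO (71.4%). The Krt18 stretch was thus unmethylated in both libraries as far as the calls reach, while the intervals of the libraries did not overlap for Krt20 (1.20% to 14.5% against 24.1% to 53.9%) or for Krtap1-5 (8.68% to 24.1% against 59.9% to 80.7%). These intervals cover counting error only. Krt20 and Krtap1-5 are shown for their rise, and these bases lie within the windows around the starts tested below. The gap between the libraries here is therefore no separate support.

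A RefSeq promoter was at hand for 87 of the 110 genes. They were poor in CpGs, with a median of 3 in the 250 bases (3.5 for Krt and 2 for Krtap), beside 11 over the 15686 autosomal protein-coding genes matched in the same way. For 13 Krtap genes the 250 bases held none. The RefSeq start taken was the one nearest the start of the principal transcript, with no limit on the distance. For Krt14 it lay 1518 bp after that start and for Krt8 140 bp after it. Some of these promoters thus lie away from the gene starts used below. The letters TATAAA, searched on the coding strand between 45 and 11 bases before the start, were present in 45 of the 87 promoters (51.7%), in 13 of 36 Krt promoters and in 32 of 51 Krtap promoters, beside 3.03% of all promoters. On the other strand (read as TTTATA) they were in 0 of the 87 and in 0.810% of all promoters. In Krt20 and Krtap1-5 the match begins 29 and 31 bases before the start, and Krt18 had none in this window. A match of letters is a description of the sequence and not a site of a factor.

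The autosomes of the WT library held 250877554 calls and those of the TCKO library 214609823, a mean of 6.15 and 5.26 for each CG cytosine in the reference sequence, with levels of 70.4% and 76.6%. The deletion was visible in the depth of some exons. In WT and TCKO respectively, 62 and 1 calls fell on exon 11 of Tet1, 155 and 46 on exon 10 of Tet2, and 19 and 4 on exon 10 of Tet3. In the library labelled TCKO these exons thus had fewer calls than in WT, though not in each case none. The 5 epithelial markers (Epcam, Cdh1, Cldn4, Cldn7 and Esrp1) had low levels within 1 kb of the TSS in both libraries, from 2.04% to 17.9% in WT and from 2.37% to 26.2% in TCKO. Starts of the 3 blood markers (Ptprc, Cd79a and Cd3e) were at 72.6% to 78.4% in WT and at 79.8% to 81.4% in TCKO, and those of the 3 endothelial markers (Pecam1, Cdh5 and Tie1) were at 64.9% to 80.7% and at 82.3% to 88.1%. The 7 osteoblast markers ranged from 0.613% to 71.9% in WT and from 2.76% to 79.4% in TCKO, with 4 below 30% in WT and 2 in TCKO. Col1a1, the gene for the main chain of bone collagen, was the lowest of them, at 0.613% in WT and 2.76% in TCKO. The part of other cells in the keratin results was not tested.

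At the starts of the genes, methylation was mostly high in both libraries. The calls within 1 kb on either side of the TSS were pooled per gene, and 108 genes had at least 20 calls in each library. Krtap5-2 and Krtap15 fell short and were not tested. The windows of no 2 members overlapped. The median level of the 108 genes was 69.5% in WT and 74.5% in TCKO, whereas over all 20651 autosomal protein-coding genes tested the medians were 26.7% and 32.4%. The window held a median of 50 CG cytosines for the keratin genes and of 128 for all genes. The median difference (TCKO minus WT) was 6.09 percentage points for the keratin genes and 3.02 points for all genes, and it was 3.41 points for the 6666 genes with a WT level of at least 50%, a group added for comparison that is selected on a high WT level. Over the 8683 genes with at most 100 CG cytosines in the window it was 4.40 points. Of all 20651 gene starts, 10972 were below 30% in WT. Beyond gene starts the median difference was 5.71 points over the bodies of all genes tested and 6.61 points over autosomal windows of 500 kb. At the keratin starts the level was higher in TCKO at 87 genes (80.6%) and lower at 21. It was higher at 72.1% of all genes tested and at 71.6% of those with at most 100 CG cytosines.

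Of the 108 genes, 18 passed the test with a higher level in TCKO (Fisher exact test, 2-sided, Benjamini-Hochberg adjusted over all genes tested, adjusted p below 0.05), which is 16.7%, beside a background of 23.9% of all genes. A single gene, the hair keratin Krt81, passed with a lower level, beside a background of 2.38%. The share of keratin genes called in either direction was thus not above that of genes at large. The calls behind each gene were fewer than usual, with medians of 197 in WT and 151 in TCKO beside 281 and 230 over all genes. The 18 were 10 of 53 Krt genes and 8 of 55 Krtap genes.

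**Figure D1:**
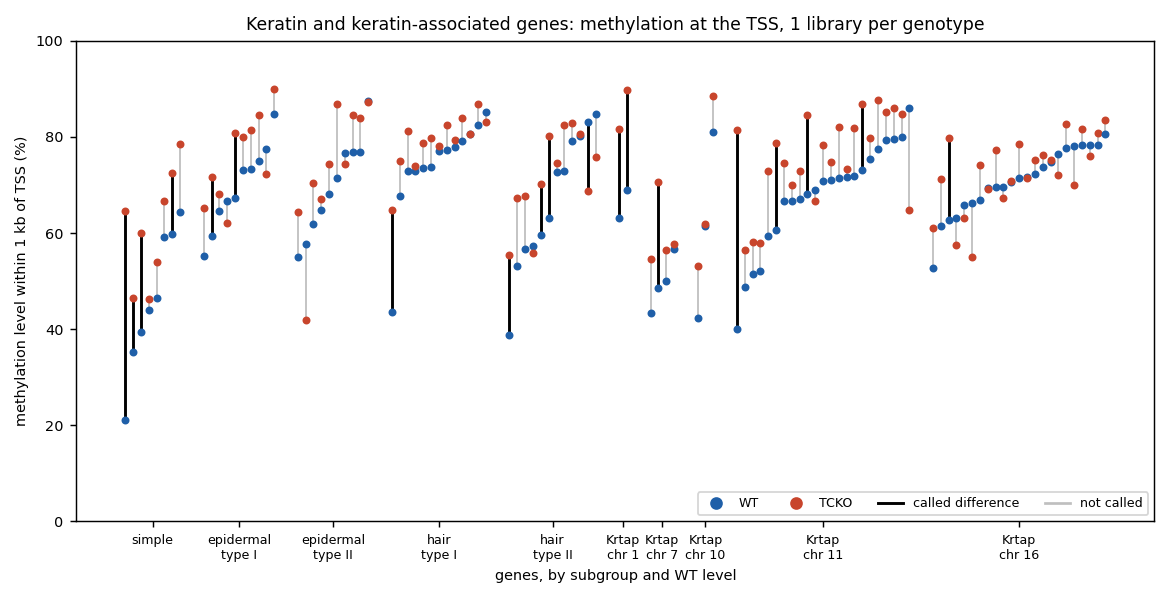
Methylation level (%) within 1 kb of the TSS of the 108 genes tested, in WT (blue) and TCKO (red), 1 library each, ordered by WT level within each subgroup; black lines join the levels of genes that passed the Fisher exact test and grey lines those that did not. Most genes lie above 50% in both libraries, the lowest WT level (21.1%) is that of Krt80 among the simple-epithelial keratins, and the longest lines belong to Krt80 and Krtap1-5.

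Among the keratins proper, those of simple epithelia had the lowest median levels. The subgroups were assigned from general knowledge of the genes. The hair group also holds keratins of the root sheath, and the epidermal group holds keratins of other epithelia such as Krt13 of the oral mucosa. Krt80, Krt23 and Krt222 are less typical of simple epithelia than the others. The medians of the 8 genes were 45.2% (WT) and 62.4% (TCKO), with a median difference of 11.9 points. The level was higher in TCKO at 8 of 8, beside 72.1% of all genes tested, and 4 of the 8 passed the test. Without these 3 the medians of the remaining 5 were 59.3% and 66.7%, with a median difference of 12.5 points. The 45 epidermal and hair keratins had medians of 73.0% and 78.1% and a median difference of 5.18 points, with 6 called higher and 1 lower.

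Krt8, the type II partner of Krt18 (ENSMUSG00000049382, chr15:101996698-102004482, minus strand), rose from 59.8% (149 of 249 calls) to 72.4% (173 of 239), with an adjusted p of 0.0200 by the Fisher exact test. Krt18 (ENSMUSG00000023043, chr15:102028180-102032027, plus strand) rose from 35.2% (92 of 261 calls) to 46.5% (147 of 316), with an adjusted p of 0.0293 by the same Fisher exact test. Both calls were lost when the window was 500 bp on either side (differences of 7.64 and 12.6 points) or the 2 kb upstream (12.7 and 4.48 points), and on each strand alone. The Krt18 level lay below all 45 epidermal and hair keratins in WT, whose lowest level was 38.7% (Krt87), whereas Krt8 lay within their range of 38.7% to 87.6%. In TCKO both Krt18 and Krt8 lay within the range of these 45 genes, which was 42.0% to 89.97%.

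Krt19, the type I keratin of simple epithelia and ducts (ENSMUSG00000020911, chr11:100140810-100148665, minus strand), had 59.3% in WT and 66.7% in TCKO around the 5′ end of its gene record, a difference that did not pass (adjusted p = 0.386, Fisher exact test). The principal transcript of Krt19, however, starts 2545 bp downstream of that end. Within 1 kb of this start, a position chosen after the values were seen, 34 of 305 calls were methylated in the WT library (11.1%, 95% interval 8.09% to 15.2%) and 44 of 145 in the TCKO library (30.3%, 23.4% to 38.3%), with an adjusted p of 2.14e-05 by the Fisher exact test. Krt19 at its principal start was therefore lower than every other keratin gene start in both libraries. For 108 of the 110 genes the principal start lay within 100 bp of the gene record, and Krt7 was the other exception, at 1359 bp. At its principal start Krt7 had 48.7% of 238 calls in WT and 51.5% of 262 in TCKO, a difference of 2.79 points that did not pass (adjusted p = 0.782, Fisher exact test). With both genes read at their principal starts, the medians of the 8 simple-epithelial keratins were 41.7% and 52.7%, and the median difference stayed at 11.9 points.

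Krt80 and Krt20 showed the larger changes. Krt80, also a type II keratin (ENSMUSG00000037185, chr15:101347444-101370162, minus strand), rose from 21.1% (27 of 128 calls) to 64.7% (86 of 133), a difference of 43.6 points with an adjusted p of 8.61e-11 by the Fisher exact test. It was the only one of the 108 genes below 30% in WT, and no gene was below 30% in TCKO. Krt20, a keratin of intestinal epithelium (ENSMUSG00000035775, chr11:99428403-99438150, minus strand), rose from 39.4% (123 of 312 calls) to 60.1% (191 of 318), with an adjusted p of 4.98e-06 by the Fisher exact test. For Krt80 and Krt20 the intervals of the libraries did not overlap. Around the ends of their gene records Krt7, a keratin of glands and ducts, had 64.5% and 78.6%, Krt23 had 46.5% and 53.9%, and Krt222 had 43.9% and 46.3%, none of which passed.

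**Figure D2:**
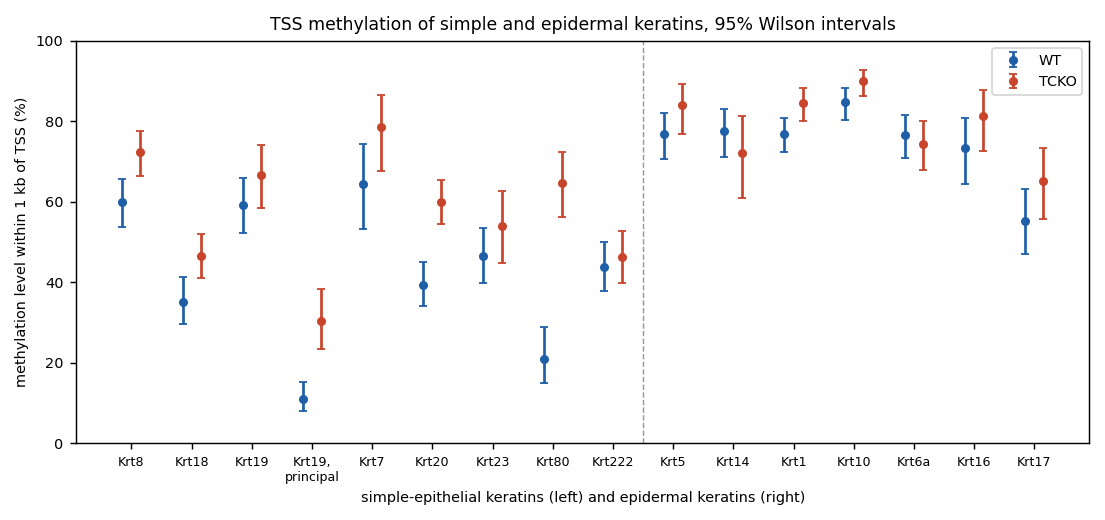
Methylation level (%) within 1 kb of the TSS with 95% Wilson intervals, which cover counting error only, for the 8 simple-epithelial keratins, for Krt19 also at its principal start, and for 7 epidermal keratins, in WT (blue) and TCKO (red), 1 library each. Krt80 has the widest gap, from 21.1% to 64.7%, while the epidermal keratins lie above 50% in both libraries.

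Along the starts, the pattern differed between Krt8, Krt18 and Krt19 on one side and Krt80, Krt20 and Krtap1-5 on the other. Windows of 200 bp were read around the principal TSS, and the stretches given here were chosen after those windows were seen, so they carry no test. From 200 bp before to 600 bp after the Krt18 start, a stretch that touches its exon 1 and holds 74 CG cytosines, 4 of 97 calls were methylated in the WT library (4.12%) and 4 of 75 in the TCKO library (5.33%). From 400 bp before to 1000 bp after the Krt19 start, with 114 CG cytosines, these shares were 5 of 261 (1.92%) and 3 of 97 (3.09%). In Krt8 the low stretch lay in the first intron, between 800 and 1600 bp after the start (76 CG cytosines), at 7.41% (6 of 81 calls) and 9.68% (6 of 62). The intervals of the libraries overlapped in each of these CpG-rich stretches. Krt7, read in the same way, followed neither pattern. In the 200 bp before its principal start, with 32 CG cytosines, the levels were 21.4% of 70 calls in WT and 34.9% of 63 in TCKO. In the next 200 bp, also with 32, they were 60.0% of 15 calls and 12.8% of 47. From 200 to 400 bp after the start they were 47.6% of 63 and 63.4% of 71.

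The share of calls that fell on the low stretches differed between the libraries, and this enters the pooled levels of Krt18, of Krt19 and, as given with the hair keratins, of Krt87. In the Krt18 window the low stretch took 97 of 261 calls in WT and 75 of 316 in TCKO, and outside it the levels were 53.7% and 59.3%, a difference of 5.68 points in place of 11.3. As an unweighted mean over the 81 cytosines covered in both libraries, Krt18 differed by 2.45 points (30.3% and 32.7%). At the principal start of Krt19 the stretch took 261 of 305 calls in WT and 97 of 145 in TCKO. Outside it, on 44 and 48 calls, the levels were 65.9% and 85.4%, a difference of 19.5 points beside 19.2 in the whole window. The unweighted mean over 55 cytosines was 15.5% and 21.7%, a difference of 6.21 points, so the 2 readings of Krt19 did not agree. The same mean left Krt8 at 11.7 points, Krt20 at 20.7, Krt80 at 36.0 and Krtap1-5 at 36.6, near their pooled differences of 12.5, 20.6, 43.6 and 41.5 points.

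In Krt80 the stretch from 800 to 200 bp before the start had 1 methylated of 57 calls in WT (1.75%, 95% interval 0.310% to 9.29%) and 48 of 61 in TCKO (78.7%, 66.9% to 87.1%). The 1200 bp farther upstream, from 2000 to 800 bp before the start, were high in both libraries, at 91.3% and 88.5%. Nearest the Krt80 start the libraries differed less, on few calls. In the 200 bp before it 3 of 13 calls were methylated in WT and 3 of 11 in TCKO, and in the 200 bp after it 4 of 12 and 6 of 12. In Krtap1-5 the 400 bp before the start rose from 12.1% (12 of 99 calls) to 67.8% (59 of 87), and the stretch from 1000 to 600 bp before it from 10.8% (15 of 139) to 76.7% (99 of 129). Between these stretches, from 600 to 400 bp before the start, lay CG cytosines at 77.3% in WT and 87.4% in TCKO. In Krt20 the 400 bp centred on the start had 3 methylated of 50 calls in WT (6.00%) and 12 of 36 in TCKO (33.3%). The stretches that were low in WT thus held 34 CG cytosines in Krt80, 20 in Krt20 and 10 and 12 in Krtap1-5, fewer than in Krt8, Krt18 and Krt19. The stretches of Krt8, Krt18 and Krt19 were also longer, so these counts are not densities.

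**Figure D3:**
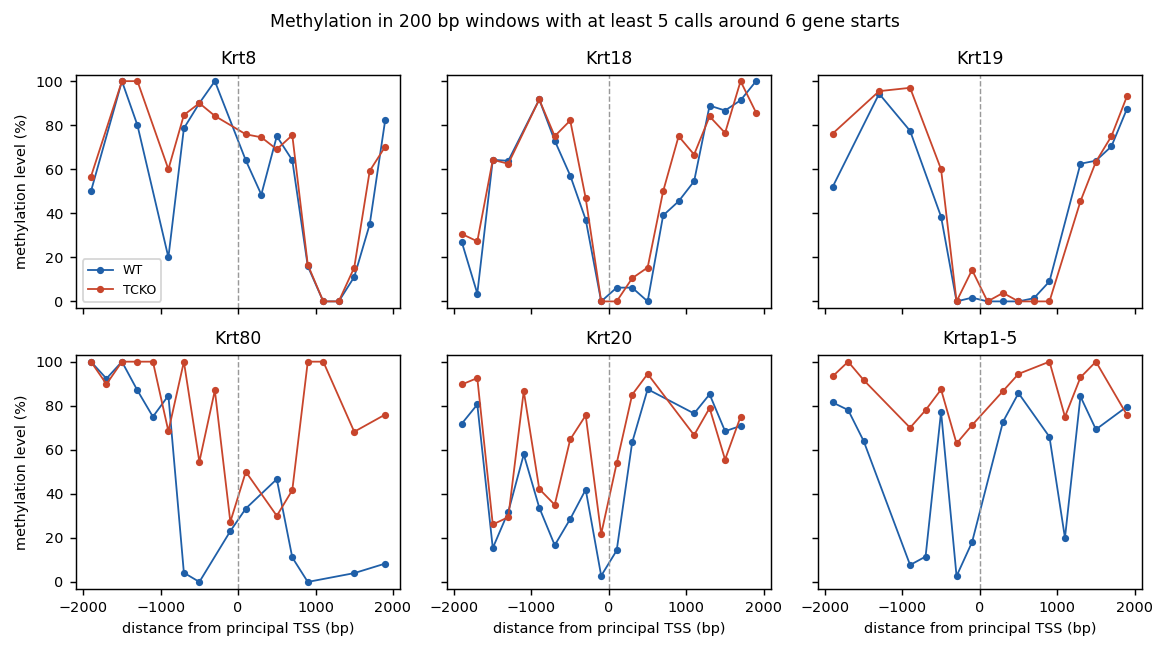
Methylation level (%) in windows of 200 bp, plotted at their centres, by distance from the principal TSS (dashed line) of 6 genes in WT (blue) and TCKO (red); windows with fewer than 5 calls in a library are left out for that library. In Krt8, Krt18 and Krt19 the dips reach 0 in both libraries, whereas in Krt80, Krt20 and Krtap1-5 the WT dips are filled to a varying extent in TCKO.

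The epidermal keratins were highly methylated at their starts. Of the 20 genes, 2 passed the test, both of type I and both with a higher level. Krt13, a keratin of oral mucosa, rose from 67.3% to 80.8% (adjusted p = 0.0106, Fisher exact test) and had the greatest rise of the type I epidermal keratins. Krt15, found in basal cells and the hair follicle and named here after its values were seen, rose from 59.3% to 71.7% (adjusted p = 0.0199, Fisher exact test). The direction of both depended on the window, since the difference (TCKO minus WT) was -2.31 points for Krt13 over the 2 kb upstream and -0.988 points for Krt15 within 500 bp.

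The pair of the basal layer, Krt5 and Krt14, had 76.9% and 77.5% in WT and 84.0% and 72.2% in TCKO. Krt14 had the greatest fall of its group, a difference of -5.32 points (adjusted p = 0.628, Fisher exact test). The suprabasal pair, Krt1 and Krt10, had 76.8% and 84.8% in WT and 84.5% and 89.97% in TCKO. Krt6a, Krt16 and Krt17, keratins of appendages and of stressed epidermis, had 76.6%, 73.4% and 55.3% in WT and 74.4%, 81.4% and 65.1% in TCKO. None of these 7 genes passed the test, and their WT levels ranged from 55.3% to 84.8%. Among the type II epidermal genes, Krt79 had the greatest rise (71.4% to 86.8%, 77 and 53 calls) and Krt76 the greatest fall (57.7% to 42.0%, 97 and 50 calls), and neither passed (adjusted p = 0.145 and 0.203, Fisher exact test).

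Among the 25 hair keratins, 4 were called higher and 1 lower. Krt32, a type I hair keratin, rose from 43.6% (34 of 78 calls) to 64.8% (68 of 105), with an adjusted p of 0.0291 by the Fisher exact test. In contrast, Krt35 had the greatest fall of the type I hair group, from 85.3% to 83.1%, which did not pass. Of type II, Krt90 had the greatest rise, from 63.0% to 80.2% (adjusted p = 0.00177, Fisher exact test), and Krt87 and Krt88, named after their values were seen, rose from 38.7% to 55.4% and from 59.6% to 70.2%. Within 500 bp, however, the difference of Krt88 was -6.30 points. From 400 bp before to 600 bp after its start, Krt87 too had a stretch that was low in both libraries, at 7 of 127 calls in WT (5.51%) and 6 of 49 in TCKO (12.2%). Outside it the levels of the Krt87 window were 56.5% and 65.0%, a difference of 8.46 points in place of 16.7, and the unweighted mean over cytosines covered in both libraries differed by 8.93 points. This stretch was also chosen after its values were seen. Krt81, a hair shaft keratin, fell from 83.2% (188 of 226 calls) to 68.8% (77 of 112), with an adjusted p of 0.0162 by the Fisher exact test. Its call was lost on the minus strand alone and over the 2 kb upstream, and the unweighted mean over cytosines covered in both libraries differed by -7.54 points.

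The Krtap genes, which encode small cysteine-rich or glycine- and tyrosine-rich proteins of the hair shaft, had medians of 69.5% (WT) and 74.5% (TCKO) at their starts. Krtap1-5 (ENSMUSG00000047253, chr11:99579976-99581016, minus strand) rose from 39.95% (171 of 428 calls) to 81.4% (324 of 398), with an adjusted p of 5.74e-32 by the Fisher exact test. It kept its call in every alternative run, with differences between 35.1 and 53.2 points. Its neighbours Krtap1-3 and Krtap1-4 had 79.6% and 77.5% in WT and 86.1% and 87.8% in TCKO, and neither passed. On the same chromosome Krtap9-5 had the greatest fall of the 108 genes, from 85.9% to 64.7%, on 64 and 51 calls at 6 CG cytosines, and did not pass (adjusted p = 0.0522, Fisher exact test).

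Both Krtap genes of chromosome 1 passed. Krtap28-13 rose from 68.9% to 89.7% and Krtap28-10 from 63.1% to 81.6% (adjusted p = 0.000138 and 0.000796, Fisher exact test). Krtap28-10 differed by 44.5 points on the minus strand alone and by 3.73 on the plus strand, where its call was lost. On chromosome 7 Krtap5-4 rose from 48.6% (53 of 109 calls) to 70.7% (53 of 75), with an adjusted p of 0.0190 by the Fisher exact test, a call lost on the minus strand alone (7.31 points). Krtap5-5 had 56.7% and 57.8%. On chromosome 10, where no gene passed, Krtap10-4 had 42.3% and 53.2% and Krtap10-10 had 61.5% and 62.0%. The chromosome 16 genes differed least, with a median difference of 2.39 points. Of 23 tested, 14 were higher (60.9%, beside 72.1% of all genes tested) and 9 lower. Here Krtap7-1 alone passed (62.8% to 79.7%, adjusted p = 0.00344, Fisher exact test), and Krtap6-3 had the greatest fall, from 66.2% to 55.1% (adjusted p = 0.451, Fisher exact test). Krtap2-4, Krtap4-2 and Krtap4-7 of chromosome 11 were the others called, with rises of 16.3, 18.0 and 13.6 points. Many Krtap genes have close copies, and the effect of keeping only uniquely mapped reads on them was not tested. The windows not tested hold few CpGs, 3 for Krtap5-2 (9 and 16 calls) and 4 for Krtap15 (16 and 23 calls).

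The number called at the starts depended on the window and the calls used. Within 500 bp, 9 genes were called higher and 3 lower of 99 tested, and with at least 20 points of difference required as well, 6 were called higher and 0 lower. Of the 19 calls at the starts, 4 held on each strand alone, those of Krt20, Krt80, Krtap1-5 and Krtap28-13. On neither strand alone did 7 hold, those of Krt8, Krt13, Krt15, Krt18, Krt32, Krt88 and Krtap4-2. On the plus strand alone the calls of Krt90, Krtap28-10 and Krtap4-7 were lost as well, and on the minus strand alone those of Krt81, Krt87, Krtap2-4, Krtap5-4 and Krtap7-1. A single strand holds fewer calls per gene.

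Over the gene bodies the keratin genes were close to the rest of the genome in level and difference. The median level of the 95 genes tested was 71.1% in WT and 76.5% in TCKO, with a median difference of 4.95 points, and over all 20584 genes tested the medians were 69.4% and 75.8%, with a median difference of 5.71 points. A higher level passed the test in 35 of the 95 (36.8%), beside a background of 65.3%, and a lower level in 1, beside a background of 2.76%. The keratin genes are small, and the median gene body had 428 calls in WT beside 1983 over all genes. The window around a start and the gene body share the first 1 kb of the gene, so that calls at both rest partly on the same reads. Of the 18 genes called higher at their starts, 10 were also called higher in the body, which is 55.6% of the first list and 28.6% of the second.

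Krt19 had the greatest body difference of the Krt genes, from 50.7% (412 of 812 calls) to 67.9% (436 of 642), with an adjusted p of 1.24e-10 by the Fisher exact test. Without the low stretch at its start, which held 261 of the WT calls and 97 of the TCKO calls, its body had 73.9% and 79.4%, a difference of 5.58 points. Of the 8 simple-epithelial keratins, 7 had a higher body level in TCKO, a direction shared by 84.7% of all genes tested. Of the 7, 6 passed the test, among them Krt80 (65.4% to 77.3%), Krt23 (71.2% to 79.4%) and Krt7 (65.3% to 71.2%). Krt8 (64.8% and 69.7%) and Krt18 (68.7% and 66.9%) did not pass. Of the epidermal keratins, Krt5 rose from 78.7% to 85.9% (adjusted p = 0.00634, Fisher exact test), whereas Krt14 (61.7% and 67.3%), Krt1 (79.2% and 76.7%) and Krt10 (50% and 54.95%) did not pass. The body of Krtap22-2 fell from 95.7% (44 of 46 calls) to 64.3% (18 of 28), with an adjusted p of 0.00121 by the Fisher exact test, and it had too few calls to be tested at a minimum of 50. Krtap4-2, named after its values were seen, had the greatest rise, from 20% (7 of 35 calls) to 65.2% (30 of 46), with an adjusted p of 0.000110 by the Fisher exact test.

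The genes lie in 6 loci, defined as runs of members with gaps of at most 200 kb. Between the genes of the chromosome 11 locus (50 genes in 1037 kb) the level was 69.1% in WT and 74.8% in TCKO, and inside them 69.3% and 74.9%. The chromosome 15 locus (26 genes in 685 kb) had 66.9% and 73.1% between genes and 69.6% and 74.8% inside them. Over the whole loci the differences were 5.66 points on chromosome 11 and 5.80 on chromosome 15, beside a median of 6.61 and quartiles of 4.63 and 8.02 over 4802 autosomal windows of 500 kb.

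The chromosome 16 locus (24 Krtap genes in 960 kb) differed by 2.17 points, from 70.5% in WT to 72.7% in TCKO, and 12.2% of the 500 kb windows had a smaller difference. Its flanks of 500 kb on each side had 73.5% and 81.0%, a difference of 7.52 points. Of the 49 windows of 20 kb in this locus, 19 (38.8%) were lower in TCKO, beside 1 of 52 on chromosome 11, 1 of 35 on chromosome 15 and 10.2% of the windows of all autosomes. Inside the genes of this locus the level was 72.7% in WT and 77.5% in TCKO (3141 and 2579 calls), a difference of 4.87 points. Between the genes it was 70.5% and 72.6%, a difference of 2.10 points. The locus as a whole thus stood low in the difference and not in the WT level, which exceeded that of 50.1% of the 500 kb windows. The small loci of chromosomes 1, 7 and 10 differed by 10.1, 6.04 and 6.66 points.

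**Figure D4:**
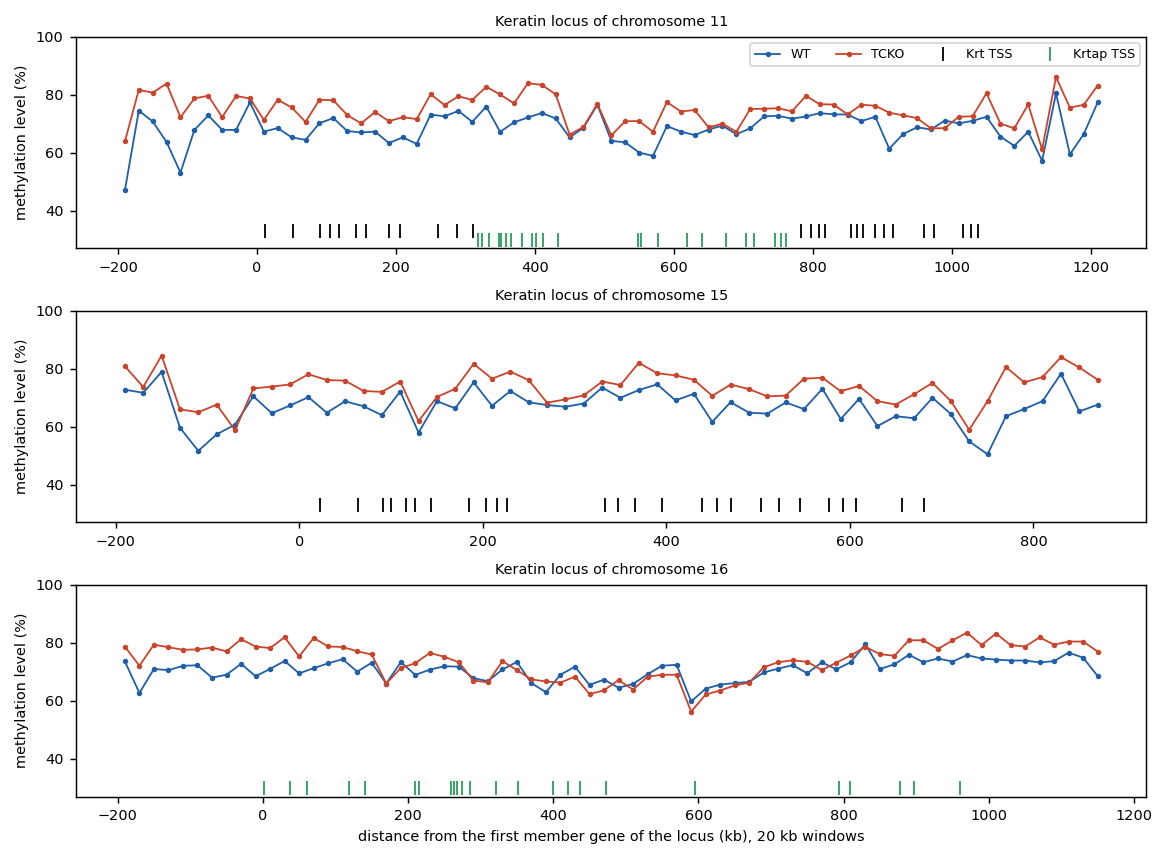
Methylation level (%) in windows of 20 kb along the keratin loci of chromosomes 11, 15 and 16, by distance (kb) from the first gene of each locus and with 200 kb of flank on each side, in WT (blue) and TCKO (red); ticks mark the gene starts (Krt black, Krtap green), and the axis starts at 27%. TCKO lies above WT along most of chromosomes 11 and 15, while in the middle of the chromosome 16 locus the lines run together or cross.

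Across the autosomes, 200 bp bins were tested where they held 4 or more CG cytosines and averaged 4 or more reads on each in both libraries. They were called at an adjusted p below 0.05 (Fisher exact test, Benjamini-Hochberg) and a difference above 40 points. In the loci 50 of 2898 testable bins were higher in TCKO (1.73%), beside a background of 2.93%, and 1 was lower (0.0345%), beside a background of 0.0343%. Of the 50, 6 were among the 350 testable bins that overlapped a keratin gene (1.71%) and 44 among the other 2548 (1.73%), so the shares were alike. Of all 51, 4 lay within 1 kb of the principal start of a member. Of these 4, 3 were those before the Krtap1-5 start, and the other was in an intron of Krt13, 865 bp after its start (17.0% to 61.9%).

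More than 5 kb from the nearest principal start lay 31 of the 51 (60.8%), and 1877 of the 2898 testable bins (64.8%). The bin 1648 bp before the start of Krtap5-4 rose from 16.4% (11 of 67 calls) to 82.0% (50 of 61), and the bin 1429 bp before that of Krtap28-13 from 23.6% (21 of 89) to 78.9% (60 of 76). At chr16:89522001-89522200 the bin 13778 bp before Krtap7-1 rose from 3.64% (2 of 55 calls) to 75.9% (41 of 54), and the bin next to it, farther upstream, from 6.67% (3 of 45) to 85.7% (42 of 49). On chromosome 15 a bin at chr15:101840201-101840400, 10493 bp after the start of Krt1 and outside the gene, rose from 10.98% (9 of 82 calls) to 80.0% (36 of 45). In Krt80 a bin in an intron rose from 18.5% (5 of 27) to 87.5% (14 of 16). The bin that fell lay 91440 bp from the nearest start, that of Krtap20-2, with 96.0% (24 of 25 calls) in WT and 55.6% (10 of 18) in TCKO. The bins named here were chosen after their values were seen.

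Lists of related genes gave counts of a similar kind at their starts. Of 15 other intermediate filament genes, 4 were called higher and 0 lower, among them Des, the filament protein of muscle (31.6% to 52.7%), and Bfsp1, a filament protein of the lens (34.1% to 60.4%). Vim, the filament protein of mesenchymal cells, had 1.74% and 3.89% and did not pass. Of 20 genes of desmosomes and hemidesmosomes, to which keratin filaments attach, 6 were called higher, among them Evpl (44.3% to 70.4%) and Perp (28.8% to 47.7%), and 1 lower, Itgb4 (62.4% to 34.3%). Of 25 genes of the cornified envelope and its neighbours, 4 were called higher and 0 lower, with Tgm1, which cross-links the envelope, at 43.0% and 60.0%. Of 21 regulators and markers of epithelium and hair, 5 were called higher, among them Grhl1 (22.8% to 40.1%), and 1 lower, Msx2 (26.0% to 9.33%). Trp63, the regulator of stratified epithelium, had 58.6% and 66.7% and did not pass. The shares called higher, from 16% for the cornified envelope to 30% for the desmosomes, stood on either side of the background of 23.9%.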

How the data were processed

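WGBS of primary osteoblasts was read from 1 WT and 1 TCKO library. Reads were mapped by the authors with BSMAP 2.74 on GRCm38 (the submitters' processing notes also name CASAVA), with 2 mismatches allowed and only unique hits retained. The deposited values are raw counts for each strand of every CG: methylated calls and total calls. Bisulfite does not separate 5mC from 5hmC. Removal of duplicates is not given in the sources used here, so only counting error enters the p-values and the 95% Wilson intervals.

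Libraries were grouped by their genotype labels. All listed autosomal positions fell on a CG of the reference. Levels were methylated over all calls, pooled per window. Windows, gene bodies and bins were compared by 2-sided Fisher exact tests with Benjamini-Hochberg adjustment over all features tested, with at least 20 calls per library for genes. The code was tested on simulated data. Genes were named by rule: the simple-epithelial keratins, 7 epidermal keratins, members below 30% in WT, the extremes of each subgroup and called decreases. The members and lists were chosen with earlier results of these data known. Promoter sequences were from RefSeq (GRCm38.p6). The symbols Krt74 and Krt85 matched no protein-coding gene of the annotation. Alternatives changed the call minimum, strand, window, threshold and deepest cytosines. RNA and chromatin data were not analysed here. The software was numba 0.67.0, matplotlib 3.10.9, scipy 1.17.1 and numpy 2.4.6 under Python 3.11.15.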

Additional observations from a re-analysis of the deposited data

How the results depend on the processing

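No paired analysis was possible because there is 1 library per genotype, and for the same reason no library could be left out. At the starts, 18 genes were called higher, and 10 on the plus strand alone, 9 on the minus strand alone, 9 within 500 bp and 6 with at least 20 points of difference required. The 1 gene called lower became 0 on the minus strand, 0 with 20 points required, 0 over the 2 kb upstream and 3 within 500 bp. The median difference of 6.09 points became 4.21 over the 2 kb upstream. The median WT level of Krt8, Krt18 and Krt19 minus the median of the epidermal and hair keratins was -13.7 points. This value became -28.6 on the minus strand and -9.12 over the 2 kb upstream. At the principal starts, an alternative chosen after seeing the data, it was -37.7. In gene bodies, 35 genes were called higher, and 20 on the plus strand, 23 on the minus strand and 7 with 20 points required. The 1 gene called lower became 0 with 50 calls, 0 without the first 1 kb and 4 on the plus strand. The median body difference of 4.95 points became 5.57 on the minus strand and 6.69 from single-cytosine means. The 51 bins became 106 at a mean of 1 read per cytosine and 119 above 20 points.

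The direction turned at the start of Krt19 on the plus strand (-1.85 points), Krt15 (-0.988) and Krt88 (-6.30) within 500 bp, and Krt13 (-2.31) and Krt15 (-1.53) over the 2 kb upstream, and in the body of Krt72 on the plus strand (-0.341). Of the other values of single genes, 282 kept direction and, where tested, side of the threshold, 70 lost the call and 2 gained it. As an unweighted mean over the cytosines covered in both libraries, chosen after seeing the data, 2 more moved, the Krt18 start to 2.45 points and the Krt19 body to 9.35. Fewer calls per gene remain under a single strand, a smaller window or a higher minimum. Beyond that, the cause was not tested. The Krtap bodies had a median of 66.5 calls in WT, which limits their precision.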
